A study of Homo sapiens with 3 samples.

Results

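The 10 genes described here are calcium-regulated contractile genes: the myosin light chain kinases MYLK, MYLK2 and MYLK3, the myosin phosphatase subunit PPP1R12A, the nonmuscle myosin heavy chains MYH9, MYH10 and MYH14, the troponin subunits TNNC1 and TNNT1, and the actin-severing protein SCIN. They are 10 of 19775 genes that the arrays read through at least 1 probe set with a single gene symbol. Members were selected by gene symbol, from a list drawn up with the log2 ratios of these same arrays known, mainly the low ratios of MYLK, MYLK3, SCIN and TNNC1 for ORF against control and of MYH10 for shRNA against control. Their ratios are therefore a description, and no test was made on them. Together they had 29 probe sets, of which 19 stood above the floor on at least 1 array and 10 on none. The floor, a log2 signal of 5.93, is the median over the probe sets of all 3 arrays together.

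Total RNA came from a stably transfected line labelled HepG2, a human liver tumour line, grown in DMEM with fetal bovine serum. The array labelled ORF carried an Hsp27 open reading frame vector, the array labelled shRNA an Hsp27 short hairpin vector, and the array labelled control a control vector. Each group is 1 array, with no clone, passage or time after transfection given in the sources used here. No difference below has a replicate check, so each one describes a pair of arrays and not a condition.

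In nonmuscle cells, myosin II filaments pull on actin when the regulatory light chain is phosphorylated. Myosin light chain kinases add that phosphate after binding calcium and calmodulin, and a phosphatase targeted by PPP1R12A removes it. In striated muscle calcium acts instead through troponin on the actin filament. Scinderin severs and caps actin filaments when calcium rises. In GRCh38.p14 coordinates MYLK lies at chr3:123610049-123884332, TNNC1 at chr3:52451100-52454041, SCIN at chr7:12570720-12660182, MYLK3 at chr16:46702282-46763246 and MYH10 at chr17:8474212-8630725.

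The vectors target HSPB1, which encodes Hsp27. Its log2 signal was 13.11 with the ORF label, 13.03 with the shRNA label and 13.25 with the control label. The array labelled ORF was thus not above the array labelled control, and ORF, shRNA and control below mean the arrays so labelled. ACTB (15.07, 15.02 and 15.25) and GAPDH (14.72, 14.74 and 14.84) were likewise highest on control. For shRNA against control the log2 ratio was −0.22 for HSPB1, −0.23 for ACTB and −0.10 for GAPDH. HSPB1 was thus no further below control on the array labelled shRNA than ACTB was. The ratio of 3′ to 5′ signal of ACTB was 2.40 on ORF, 2.23 on shRNA and 2.70 on control, while that of GAPDH was 0.939, 0.900 and 0.930. The part of this and of the higher control-array readings in the ratios below was not tested. Of the 10 hepatocyte markers 3 passed the floor on some array (RBP4, AFP and TF), and ALB read at most 4.88, so most defining markers of the labelled cell type stood below the floor. RBP4 read 9.97 on ORF, 9.99 on shRNA and 10.62 on control, and the summed linear signal of the list was 1310, 1324 and 1935. Of 16 skeletal and cardiac muscle markers listed, 15 were read through a probe set with a single gene symbol. Of these, 2 were above the floor on any array (TTN and NPPA). MYOD1, MYOG and CKM stood below the floor on every array. The summed linear signal of the muscle marker list was 462 on ORF, 483 on shRNA and 427 on control. Of 9 smooth muscle and pericyte markers 7 passed the floor on some array and 0 had a mean at the bright level, with MYH11 and CNN1 below the floor throughout; their sums were 844, 941 and 1052.

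Of the 10 genes, 5 read at least 1.5-fold lower on the ORF array than on control (MYLK, SCIN, TNNC1, MYLK3 and MYH10) and 0 at least 1.5-fold higher. Over all 12664 genes above the floor, 2.82% were that much lower and 3.04% that much higher, and 0.726% of the 7849 genes of high mean signal (8.63 or more, the pooled 75th percentile of probe sets) were that much lower. Of the same members 4 were at least 2-fold lower, against 0.497% of all genes. On the shRNA array 3 of the 10 were at least 1.5-fold lower than on control (MYH10, MYLK2 and TNNC1) and 0 higher, against 3.3% lower and 3.59% higher over all genes and 1.2% lower among genes of high mean signal. Only MYH10 of the 10 was at least 2-fold lower there, against 0.482% of all genes. Nothing is read from these shares, since the same ratios guided the choice of genes.

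Between the ORF and shRNA arrays, 4 of the 10 were at least 1.5-fold lower with ORF (MYLK, SCIN, TNNC1 and MYLK3) and 0 higher, against 2.68% and 2.64% of all genes and 0.752% lower among genes of high mean signal. MYLK and SCIN were at least 2-fold lower, against 0.458% of all genes. Without the floor MYLK2 was higher on ORF than on shRNA by a log2 ratio of 1.70, against 0.38 with it, so the count of 0 higher rests on the floor. The median log2 ratio of the 10 was −0.52 for ORF against control, −0.37 for shRNA against control and −0.12 for ORF against shRNA. Over all genes above the floor it was 0, −0.006 and 0.005. By the brightest probe set, 8 of the 10 genes were highest on the control array and 6 lowest on the ORF array. Of all genes above the floor, 36.2% were highest on control and 29.5% lowest on ORF. These orders use signals without the floor. They count MYH14 as lowest on ORF, though its ORF (5.83) and shRNA (5.84) readings were both below the floor. Both comparisons against control share the 1 control array. In RNA from whole cultures, fewer cells of a type and less RNA per cell cannot be told apart.

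**Figure D1:**
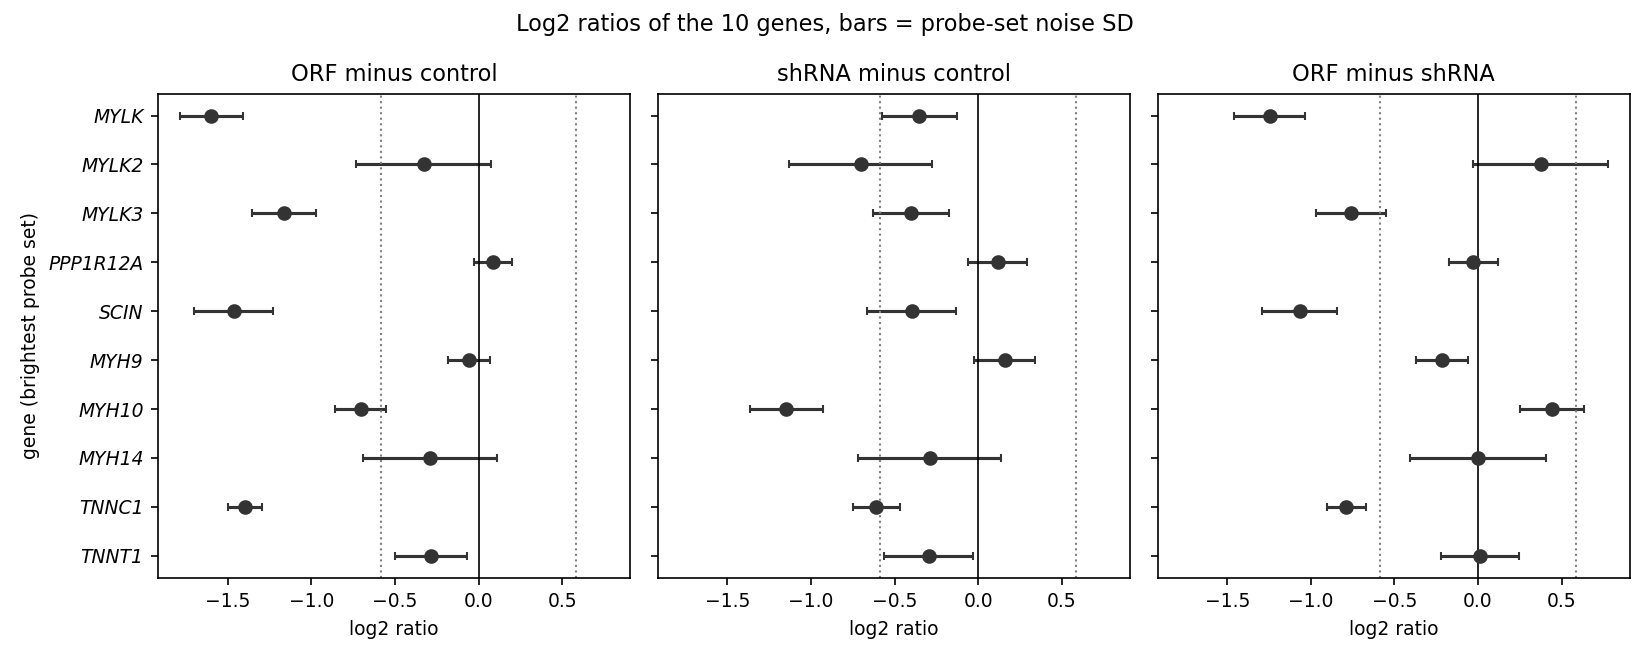
Log2 ratio (x axis) of the brightest probe set of each of the 10 genes (y axis) in the 3 comparisons; bars are the probe-set noise SD and dotted lines mark 1.5-fold. MYLK, SCIN, TNNC1 and MYLK3 lie left of the dotted line in both panels that involve the ORF array against another, while MYH10 is lowest for shRNA minus control.

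RefSeq (GRCh38.p14) gave 12 promoter windows for 8 of the 10 genes, and none was matched for MYLK2 and TNNC1. Shown here are the 250 bases before the listed start, on the gene's own strand, for 3 genes that were low on the ORF array and for MYH10, which was low on both vector arrays. They are MYLK at chr3:123620549-123620798 (minus strand), MYLK3 at chr16:46763247-46763496 (minus), SCIN at chr7:12570470-12570719 (plus) and MYH10 at chr17:8630726-8630975 (minus). Capitals mark matches, on either strand, to the CArG box (the site of serum response factor), TATAAA (the TATA box), TGANTCA (the AP-1 site) and CATTCC (the M-CAT site of TEAD factors).
MYLK: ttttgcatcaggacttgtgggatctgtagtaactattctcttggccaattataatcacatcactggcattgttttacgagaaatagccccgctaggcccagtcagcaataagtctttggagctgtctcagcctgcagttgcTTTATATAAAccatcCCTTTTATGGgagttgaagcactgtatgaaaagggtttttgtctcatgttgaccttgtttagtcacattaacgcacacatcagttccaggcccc
MYLK3: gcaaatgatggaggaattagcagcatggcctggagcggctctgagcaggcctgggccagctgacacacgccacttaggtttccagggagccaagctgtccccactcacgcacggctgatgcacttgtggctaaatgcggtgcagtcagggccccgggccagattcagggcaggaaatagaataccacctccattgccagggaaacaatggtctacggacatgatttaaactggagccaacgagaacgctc
SCIN: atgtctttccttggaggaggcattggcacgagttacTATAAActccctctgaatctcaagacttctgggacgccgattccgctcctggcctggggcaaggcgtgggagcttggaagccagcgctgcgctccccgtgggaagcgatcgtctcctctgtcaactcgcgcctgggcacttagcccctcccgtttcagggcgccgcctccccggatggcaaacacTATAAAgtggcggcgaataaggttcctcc
MYH10: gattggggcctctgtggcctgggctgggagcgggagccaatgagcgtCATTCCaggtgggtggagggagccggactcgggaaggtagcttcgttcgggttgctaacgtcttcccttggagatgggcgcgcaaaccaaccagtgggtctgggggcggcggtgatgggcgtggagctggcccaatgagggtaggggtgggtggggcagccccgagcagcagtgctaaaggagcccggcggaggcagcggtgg

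The MYLK window held the CArG box CCTTTTATGG, beginning 94 bases before the start, and overlapping TATAAA matches on opposite strands, beginning 109 and 105 bases before it. A CArG box was found in 1 of the 12 windows and in 1.16% of 35116 windows of all genes. The MYLK start lies inside the gene, 10500 bases from the 3′ end of a locus 274284 bases long. The window shown is thus not at the 5′ end of the gene. As background, an internal start of MYLK gives telokin, a short protein without kinase activity. SCIN held TATAAA at 214 and 29 bases before its start, TNNT1 held it at 29 bases, and 10.7% of all windows held it. CATTCC was in 5 of the 12 windows against 11.9% of all, with 1 match in the MYH10 window 203 bases before the start. Besides MYH10, these windows were of MYLK3, MYH9 and PPP1R12A, the last with matches at 78 and 179 bases in different windows. MYH9 was nearly level and PPP1R12A is given no direction below. TGANTCA was in 0 of the 12 against 6.57% of all. The first of the MYLK3 windows, printed above, held none of the 4 motifs, and its other window held CATTCC. These matches are letters in a window and no measurement of binding.

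MYLK encodes the kinase of smooth muscle and nonmuscle cells. Its brightest probe set read 8.68 on the ORF array, 9.92 on the shRNA array and 10.28 on control (410, 972 and 1240 as linear signals). Whether the MYLK probe sets read transcripts of the kinase, of telokin or of both was not tested. In the brightest probe set the ORF array was the low one, and shRNA lay closer to control than to ORF. ORF was 3.03-fold lower than control, a log2 ratio of −1.60 with a noise SD of 0.19. ORF was 2.37-fold lower than shRNA (−1.25, noise SD 0.21), and shRNA against control came to −0.35 (noise SD 0.23). The noise SD is the spread of ratios between probe sets of the same gene at like signal. It leaves out all variation between cultures.

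The second MYLK probe set above the floor gave the same order of arrays, at 7.23, 7.98 and 8.51. Its ratios were −1.28 for ORF against control, −0.53 for shRNA against control and −0.76 for ORF against shRNA. The other 3 MYLK probe sets stood below the floor on all 3 arrays, at no more than 4.49, and did not share that order. With the median over all 5 probe sets the MYLK ratio became 0 in each comparison, because most of them lie below the floor. MYLK was the 4th lowest of 12664 genes for ORF against control and the 1248th for shRNA against control. The first of these ranks restates a ratio that guided the choice of MYLK, and nothing is read from it.

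MYLK3, the kinase known from heart muscle, had 3 probe sets above the floor on all arrays. The brightest read 8.84 on ORF, 9.60 on shRNA and 10.00 on control, which is 2.24-fold lower on ORF than on control (log2 ratio −1.16, noise SD 0.19). The next read 8.02, 8.75 and 8.74, and the third 6.73, 7.83 and 7.81. All 3 were thus lowest on the ORF array, with ORF against control ratios of −1.16, −0.72 and −1.08. They differed in how shRNA stood to control: −0.40 for the brightest, and 0.01 and 0.02 for the others. Its remaining probe sets, at no more than 4.15, stood below the floor.

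MYLK2, the skeletal muscle kinase, was weak. Its single probe set read 6.30 on ORF, 4.61 on shRNA and 6.63 on control, and only the shRNA array was below the floor. Set to the floor, shRNA against control was −0.70 (noise SD 0.43) and without the floor −2.02, so its size rests on the floor. The ratio for ORF against control was −0.33, within the noise SD of 0.40.

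**Figure D2:**
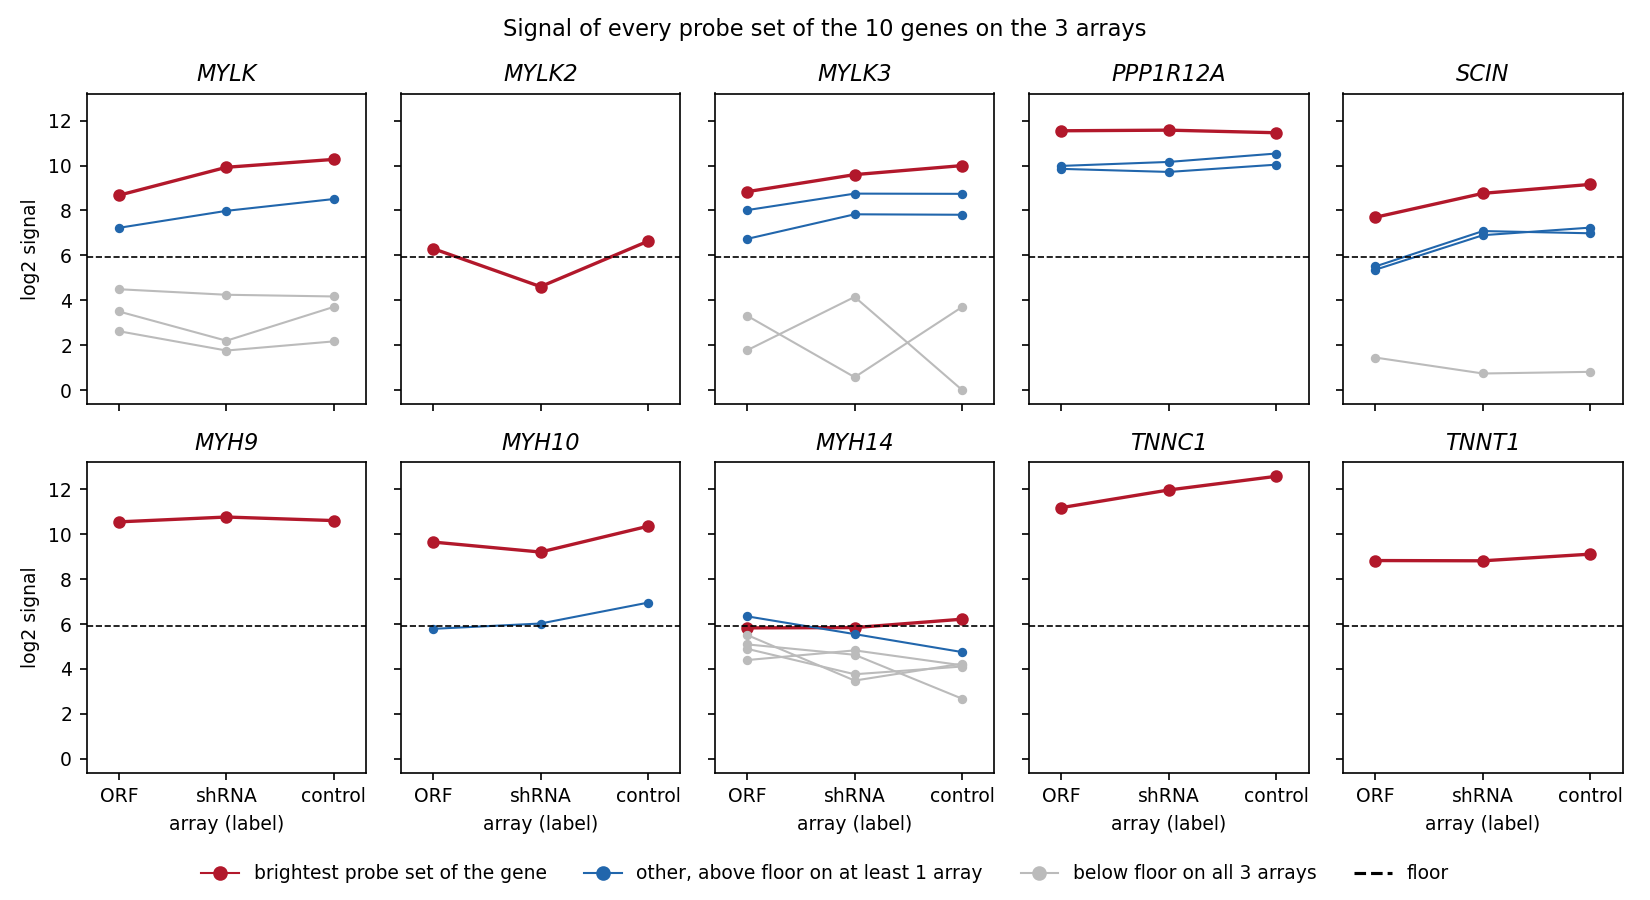
Log2 signal (y axis) of every probe set of the 10 genes on the arrays labelled ORF, shRNA and control (x axis); each line joins the 3 readings of 1 probe set, and the dashed line is the floor at 5.93. The lines of MYLK, MYLK3, SCIN and TNNC1 that stand above the floor are lowest at ORF, the brighter MYH10 line is lowest at shRNA, and the height of different probe sets is not comparable.

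PPP1R12A, the subunit that brings the phosphatase to myosin, had 3 bright probe sets that disagreed. The brightest read 11.55, 11.58 and 11.46 on ORF, shRNA and control, nearly level. The second read 9.98, 10.16 and 10.54, with −0.55 for ORF against control (noise SD 0.15), and the third 9.85, 9.72 and 10.04, with −0.19. For shRNA against control they gave 0.12, −0.37 and −0.32. No direction is given for this gene, since its probe sets differ in sign and by more than their noise SD.

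Among the nonmuscle heavy chains, both MYH10 (myosin IIB) probe sets were highest on control. Its brighter probe set read 9.65 on ORF, 9.21 on shRNA and 10.36 on control (805, 591 and 1312 linear). That is 2.22-fold lower on shRNA than on control (log2 ratio −1.15, noise SD 0.22) and 1.63-fold lower on ORF than on control (−0.70, noise SD 0.15). Both vector arrays thus lay below control. The other MYH10 probe set read 5.79, 6.02 and 6.95, also highest on control, with floored ratios of −1.03 for ORF and −0.93 for shRNA. Between ORF and shRNA the probe sets gave 0.45 and −0.10, so the order of these arrays is not settled for MYH10.

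MYH9 (myosin IIA) was bright and nearly level, at 10.55 on ORF, 10.77 on shRNA and 10.61 on control. Its ratios of −0.06 for ORF against control and 0.16 for shRNA against control were within their noise SDs of 0.12 and 0.18. MYH14 (myosin IIC) was near or below the floor in all 6 of its probe sets. The brightest read 5.83, 5.84 and 6.22 and was above the floor on control alone, while another read 6.34, 5.55 and 4.75 and was above it on ORF alone. They differ in direction, and no direction is given. On these arrays the 3 heavy chains therefore did not share a pattern: MYH10 was low on both vector arrays, MYH9 differed little and MYH14 could not be read.

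TNNC1, the calcium-binding troponin subunit of slow skeletal and heart muscle, was bright. It read 11.19 on ORF, 11.97 on shRNA and 12.58 on control (2330, 4021 and 6132 linear), each step larger than the noise SD. TNNC1 was 2.63-fold lower on ORF than on control (log2 ratio −1.40, noise SD 0.10) and 1.53-fold lower on shRNA than on control (−0.61, noise SD 0.14). ORF against shRNA was −0.79 (noise SD 0.12). It has 1 probe set, so no second reading exists. TNNT1, the tropomyosin-binding troponin subunit of slow skeletal muscle, read 8.83, 8.82 and 9.11, with −0.29 for ORF against control (noise SD 0.21) and −0.30 for shRNA against control (noise SD 0.27). Of 8 troponin genes listed, 7 were read through a probe set with a single gene symbol, and TNNT2 was not. Of these 7, TNNC1 and TNNT1 were the 2 above the floor. TNNC2, TNNI1, TNNI2, TNNI3 and TNNT3 read at most 5.58. The presence of TNNC1 and TNNT1 beside muscle markers at the floor is given as measured, and the part of muscle-type cells in these signals was not tested.

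SCIN was lowest on the ORF array in each of its 3 probe sets above the floor. Its brightest probe set read 7.70 on ORF, 8.76 on shRNA and 9.16 on control (208, 434 and 573 linear). The ORF array was 2.76-fold lower than control (log2 ratio −1.46, noise SD 0.24) and 2.09-fold lower than shRNA (−1.07, noise SD 0.22). For shRNA against control the ratio was −0.40 (noise SD 0.27). The next probe sets read 5.51, 7.08 and 6.98, and 5.36, 6.90 and 7.24. Control was thus slightly below shRNA in one of them (0.10 for shRNA against control) and above it in the other. In both, ORF lay below the floor and the other arrays above it, and the floored ratios for ORF against control were −1.06 and −1.31. A further probe set read at most 1.45. With the floor raised to the 75th percentile, SCIN against control on the ORF array was −0.53, under 1.5-fold.

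**Figure D3:**
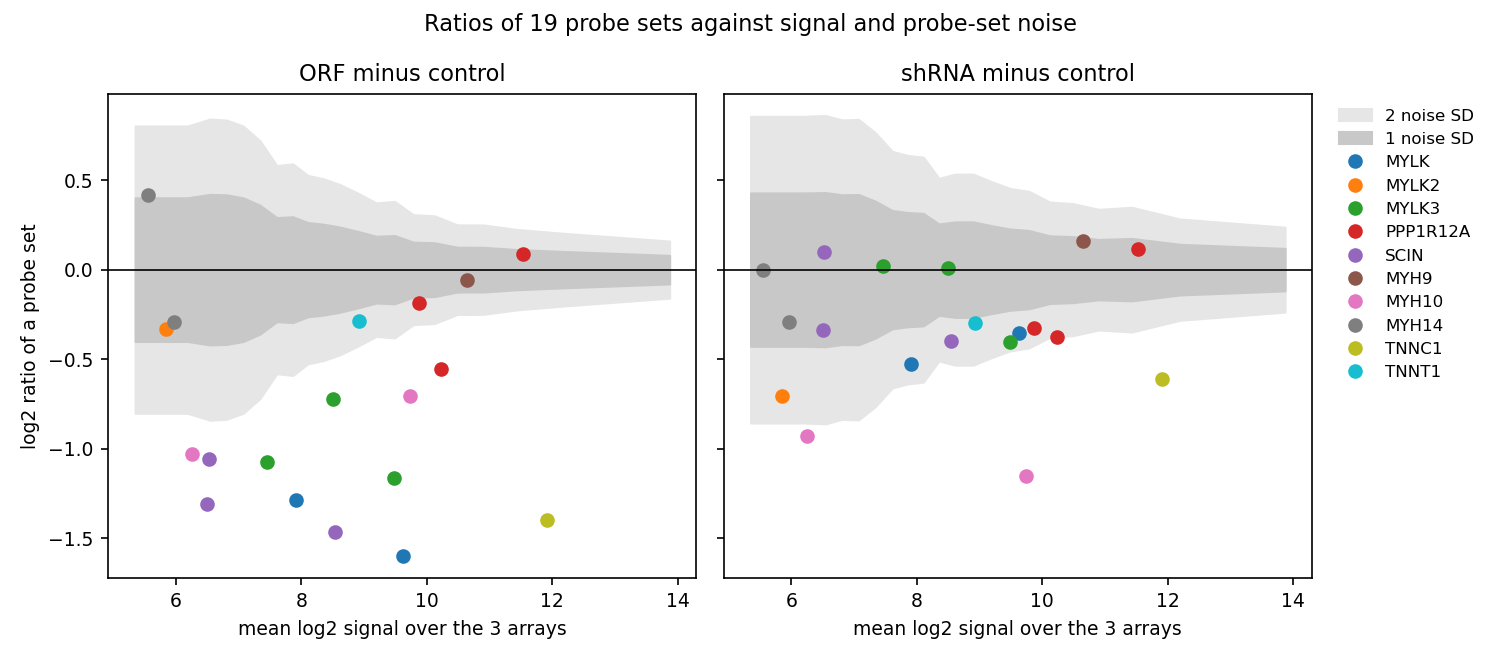
Log2 ratio, ORF minus control and shRNA minus control, of each of the 19 probe sets above the floor on at least 1 array (y axis) against its mean log2 signal over the 3 arrays (x axis), coloured by gene; grey bands are 1 and 2 noise SDs, which widen as the signal falls. For ORF minus control all probe sets of MYLK, MYLK3 and SCIN lie below the bands, whereas those of PPP1R12A spread across them.

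Of the 6 genes with more than 1 probe set above the floor, 4 had ratios of 1 sign in all of them for ORF against control (MYLK, MYLK3, MYH10 and SCIN). For shRNA against control 2 did (MYLK and MYH10), and for ORF against shRNA 3 did (MYLK, MYLK3 and SCIN). Counting probe sets, 17 of the 19 were below 0 for ORF against control, 13 for shRNA against control and 13 for ORF against shRNA. Probe sets of a gene share its transcripts and are not replicates. By the brightest probe set, 9, 8 and 6 of the 10 genes were below 0 in these comparisons, in the same order. Of all genes above the floor, read likewise, 49.4%, 51.1% and 46.8% were. Nothing is read from these shares either, since the same ratios guided the choice of genes.

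Likeness of pattern was measured as the Euclidean distance between the 3 log2 values of a pair of genes, each taken minus its own mean over the 3 arrays. Neighbours were sought among genes with a mean log2 signal of 8.63 or more, which leaves out SCIN, at 8.54, as a neighbour of other genes. Of those genes, EDIL3, an extracellular integrin ligand, lay nearest to MYLK (distance 0.21), then TNNC1 (0.33), MYLK3 (0.38), ALPG (0.50) and RUNDC3B (0.52). SCIN lay 0.13 from MYLK, closer than EDIL3 did, 0.21 from TNNC1 and 0.25 from MYLK3, with EDIL3 at 0.19 and ALPG at 0.37. The 5 such genes nearest to TNNC1 were MYLK3 (0.18), EDIL3 (0.22), RUNDC3B (0.26), GPNMB (0.26) and ALPG (0.27). EDIL3 itself read 11.21 on ORF, 12.25 on shRNA and 12.89 on control. ALPG has near-identical relatives, so its reading is uncertain. Nothing is read from the closeness of MYLK, MYLK3, SCIN and TNNC1 to each other, since their low ratios guided the choice of genes.

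MYH10 had other neighbours, among them DCN, which is on the fibroblast marker list: PC (pyruvate carboxylase, 0.14), DCN (decorin, a matrix proteoglycan, 0.20), AATK (0.23), NFRKB (0.26) and THUMPD3-AS1 (0.26). It lay 1.20 from MYLK and 0.87 from TNNC1. With 3 arrays a pattern has few degrees of freedom, and many genes can be close.

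The rest of the contractile machinery was described through lists of whole families. Over all genes above the floor, 2.82% were at least 1.5-fold lower on ORF than on control and 3.04% higher. For shRNA against control 3.3% were lower and 3.59% higher, and for ORF against shRNA 2.68% and 2.64%. By the brightest probe set, none of the 8 measured myosin phosphatase genes differed by 1.5-fold in any comparison. Their medians were 0.02 for ORF and −0.02 for shRNA against control. Another probe set of PPP1R12A, described above, stood at −0.55 for ORF against control.

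Myosin light chains were measured for 6 genes, with 0 at least 1.5-fold different between ORF and control. MYL9, the regulatory light chain of smooth muscle and nonmuscle cells, read 10.41 on ORF, 11.15 on shRNA and 10.92 on control. Its log2 ratio was −0.51 for ORF against control (noise SD 0.12), while against shRNA the ORF array stood at −0.74 (noise SD 0.14). MYL12A (0.12) and MYL12B (0.19), also regulatory chains, were slightly higher on ORF than on control. MYL6 (−0.21), an essential chain, and MYL5 (−0.33, noise SD 0.42) were lower on ORF than on control. On the shRNA array MYL12A was 0.53 above control and MYL5 −0.68, where the noise SD of MYL5 was 0.42.

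Of 11 tropomyosins and actin-filament stabilisers above the floor, TAGLN (transgelin, an actin-binding protein of smooth muscle) was at least 1.5-fold lower on ORF than on control, at −0.60 (noise SD 0.15), and 0 were higher. CALD1 (caldesmon) was at −0.36 and LIMA1 at −0.32. The list's median was −0.20 on ORF and 0.05 on shRNA against control. Among 10 actins and smooth muscle contractile genes, MYOCD and ACTG2 were lower on ORF than on control (−1.09 and −0.86). MYOCD, the coactivator of serum response factor in smooth and heart muscle, had linear signals of 128 on ORF, 298 on shRNA and 272 on control. ACTG2, an actin of smooth muscle, read 8.90, 10.45 and 9.75 and was 0.69 higher on shRNA than on control, where MYLK was at −0.35; that difference was not tested.

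In the gelsolin family, to which SCIN belongs, 6 of 8 genes were measured and 2 were at least 1.5-fold lower on ORF than on control. SCIN is 1 of these 2 and was chosen with its low ratio known. The other was GSN (gelsolin), at 7.05 on ORF, 7.48 on shRNA and 7.89 on control (log2 ratio −0.83, noise SD 0.36). AVIL stood at −0.38 and FLII at 0.19. For shRNA against control 0 of the 6 reached 1.5-fold. The smooth muscle and pericyte markers included MYOCD, at least 1.5-fold lower on ORF, and CSPG4 (−0.67, noise SD 0.31), lower on shRNA. Fibroblast and stellate cell markers, of which 9 were measured, had 0 at least 1.5-fold different on ORF and 1 in each direction on shRNA (DCN at −0.90 and COL1A1 at 0.80). Of these markers 3 had a mean at the bright level. Their list had a summed linear signal of 10998 on ORF, 13447 on shRNA and 13071 on control, above that of the hepatocyte list on each array. The part of such cells in the ratios of the 10 genes was not tested.

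**Figure D4:**
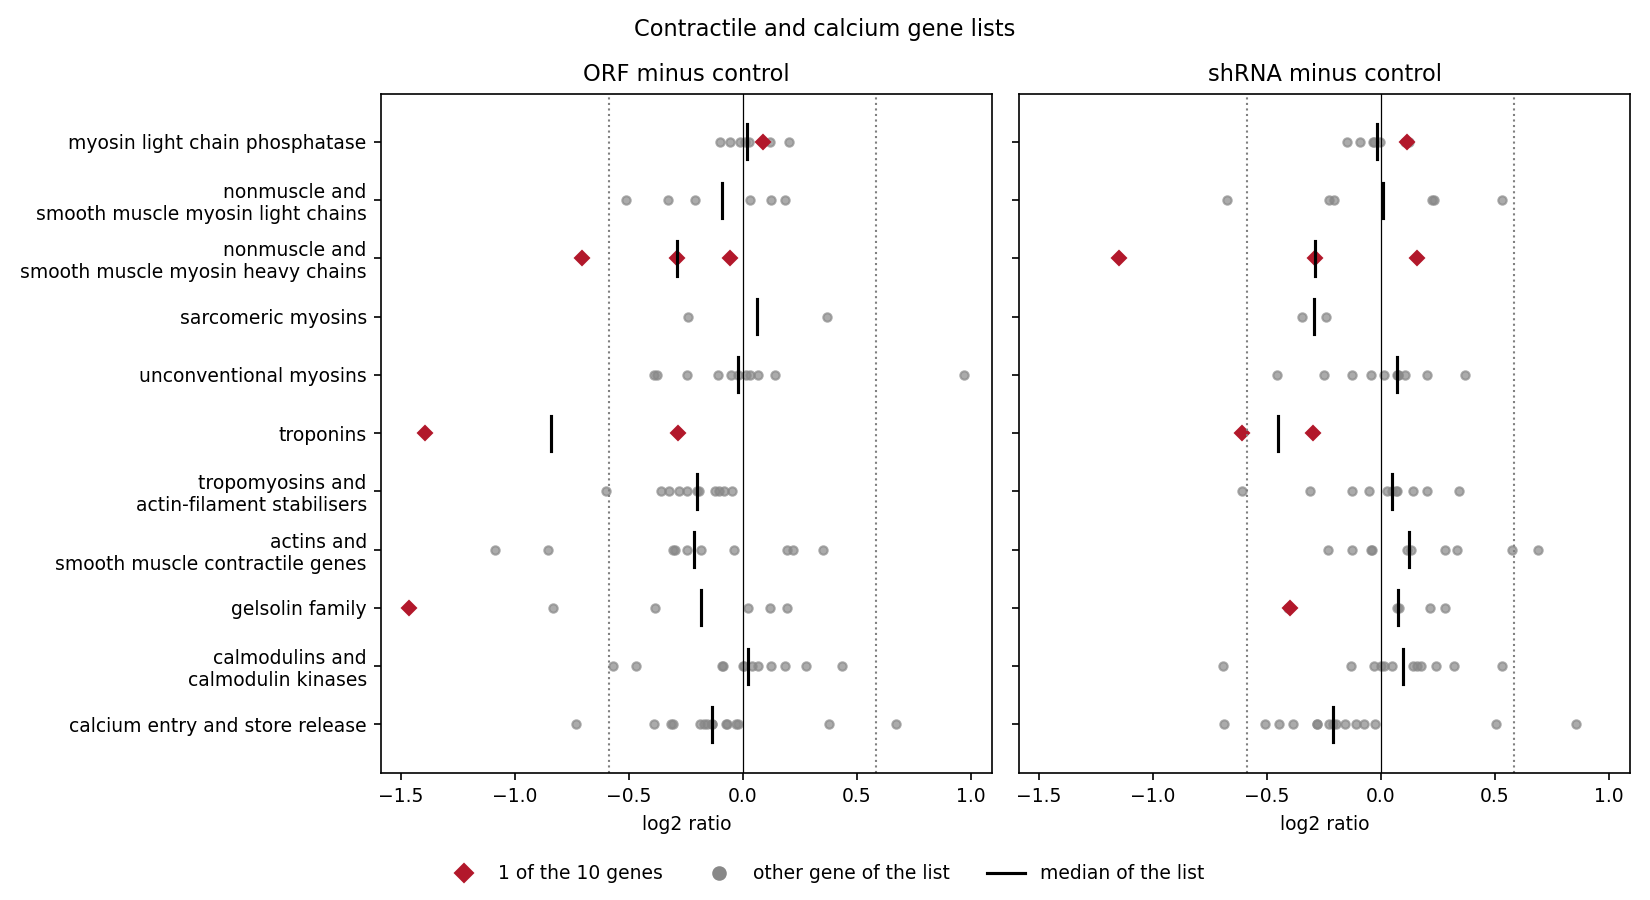
Log2 ratio (x axis) of each gene above the floor in 11 lists of contractile and calcium-handling genes (rows), for ORF minus control and shRNA minus control; diamonds are those of the 10 genes that these lists hold, grey points the other genes of a list, black ticks the list medians and dotted lines 1.5-fold. Each gene is read by its brightest probe set. SCIN and TNNC1 are at the left end of their lists in the first panel, and the phosphatase genes so read all lie near 0.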

How the data were processed

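RNA from 3 samples was hybridised to 3 expression arrays of 54675 probe sets each, 1 array per group, and grouped by the transfection label. The authors' deposited values are log2 signals, and the submitters' processing notes name MAS5; neither its version nor its scaling target is given in the sources used here. The log2 scale was read from the values, since the 2% trimmed means of the linear signals were nearly equal (500.07 on each array). Gene symbols came from the platform annotation held by GEO; the 41097 probe sets with a single symbol were used, and 41043 of these matched RefSeq's GRCh38.p14 gene table, which updated 0 symbols.

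Arrays were scaled to the same trimmed mean, signals below the floor of 5.93 (60.8 linear) were set to it, and each gene was read by its brightest probe set. A floor understates ratios of weak genes. Noise SDs came from 5483 pairs of probe sets of a gene within 1 of each other in mean log2 signal, in 20 bins. With 1 array per group no test was possible, and precision is limited by how few arrays there are. Genes, lists and rules were chosen with earlier results of these data known: the named genes are the 10 members, up to 4 of the largest ratios per list and comparison, 5 nearest patterns for each of 4 members, and HSPB1, ACTB and GAPDH. Of 13 pathway lists 11 are described, and the others are not reported here. The procedure was tested on simulated data. Alternatives covered normalization (quantile, loess, equal medians), the floor, the summary over probe sets, probe-set type and the fold threshold. Python 3.11.15, pandas 2.3.3 and statsmodels 0.14.6 were used.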

Additional observations from a re-analysis of the deposited data

How the results depend on the processing

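Over 225 recomputed ratios of the 10 genes, 204 moved by less than the noise SD, 21 moved further and 0 of those past 1.5-fold changed sign. At 2-fold in place of 1.5-fold, the members past the threshold numbered 4 for ORF against control, 1 for shRNA against control and 2 for ORF against shRNA. With the floor at the 75th percentile, 1 gene, 0 genes and 1 gene, in the same order, still had at least 2 probe sets above the floor with 1 sign, since fewer probe sets remain. The ratio of MYLK became 0 with the median over all its probe sets, and SCIN was at −0.53 for ORF against control and −0.13 for ORF against shRNA with the raised floor. MYLK3 for ORF against control ranged from −1.18 to −0.72, TNNC1 from −1.42 to −1.39, and MYH10 for shRNA against control from −1.15 to −1.04. No paired analysis was possible because each group is 1 array. Weak signals set the limit: for ORF against control the noise SD was 0.40 among the dimmest probe sets, where MYLK2 and MYH14 lie, and 0.08 among the brightest.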

Other observations

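Gene groups further from the motor differed in a few genes. Of all genes above the floor, 2.82% were at least 1.5-fold lower on ORF than on control and 3.04% higher. For shRNA against control the shares were 3.3% and 3.59%. Among 11 measured unconventional myosins, MYO1G was 0.97 higher on ORF than on control (8.13 on ORF, 7.24 on shRNA and 7.16 on control, noise SD 0.29) and 0 were at least 1.5-fold lower; on shRNA 0 of the 11 reached 1.5-fold. Of 15 sarcomeric myosin genes 2 were above the floor on any array, MYL3 and MYL4. MYL4, an atrial light chain, read 7.39 on ORF, 6.67 on shRNA and 7.02 on control, and was 0.72 higher on ORF than on shRNA (noise SD 0.37).

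Among 15 measured genes of calcium entry and store release, RYR2, a calcium release channel of heart muscle, read 8.18 on ORF, 9.17 on shRNA and 8.32 on control, so it was 0.86 higher on shRNA than on control. ATP2A3, a calcium pump of the endoplasmic reticulum, was weak, at 6.18 on ORF, 6.22 on shRNA and 6.91 on control. Its ratios against control were −0.73 on ORF (noise SD 0.42) and −0.69 on shRNA (noise SD 0.43). CACNA1D, a voltage-gated calcium channel subunit, was 0.67 higher on ORF than on control and 0.75 higher on ORF than on shRNA (noise SD 0.40 for each). Of 12 calmodulin genes, calmodulin kinases and related genes, 0 were at least 1.5-fold different on ORF, and CAMK2D came closest at −0.57. CAMKK1 was at −0.69 on shRNA against control. Of 6 endothelial markers 3 passed the floor on some array, and CDH5 among them read 5.79 on ORF, 6.63 on shRNA and 6.72 on control, or −0.79 for ORF against control and −0.70 for ORF against shRNA (noise SD 0.40 for each). Of 8 leukocyte markers 2 passed it, and CD3E read 6.72 on ORF, 5.79 on shRNA and 4.69 on control, or 0.79 for ORF against control with the floor. The summed linear signal was 211 on ORF, 339 on shRNA and 247 on control for the endothelial list and 260, 230 and 243 for the leukocyte list. Their part in the ratios of the 10 genes was not tested.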
